A study of Micropterus salmoides with 45 samples.

Results

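Among 2660 listed genes of largemouth bass liver (the fish is Micropterus salmoides, a freshwater predator), 62 combined a low level in well-oxygenated water with a raised level late in severe hypoxia. They were chosen on the values themselves. The mean over the 15 control libraries had to be under 2 RPKM, and the means of the 3 severe hypoxia libraries at 12 h and of the 3 at 24 h each had to be at least 5 RPKM, with missing values ignored. RPKM is the number of reads assigned to a gene, divided by gene length and by the sequencing total of that library, so that levels can be compared between genes. Since the control libraries and the severe 12 h and 24 h libraries chose the genes, their values are given as a description without a test. Tests were made on the other 24 libraries.

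The series holds 45 liver RNA-seq libraries in 15 groups of 3, which cross 3 oxygen levels with 5 sampling times. Per the labels, dissolved oxygen was 7 mg/L for control fish (CG). The moderate hypoxia group (MHG) lived at 3.0 ± 0.2 mg/L and the severe hypoxia group (SHG) at 1.2 ± 0.2 mg/L, and livers were taken at 0, 4, 8, 12 and 24 h after the level had been reached. All fish were 6 months old, were kept at 20 °C and were fasted, and they lived in 9 tanks, 3 per oxygen level; no strain is named. It is not stated in the labels if libraries within a group stem from different tanks or fish, so the p-values measure only the spread between these samples, and tank and oxygen level cannot be told apart.

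Low oxygen is sensed in vertebrate cells by prolyl hydroxylases, enzymes that need oxygen to mark the alpha subunits of the hypoxia-inducible factors for degradation. When oxygen is short these subunits accumulate and switch on genes for anaerobic glycolysis, oxygen transport and restraint of energy use. The liver holds the glycogen and lipid stores that a fasting fish draws on, and its gene expression is known to respond strongly to both fasting and hypoxia. The 62 genes carry only the identifiers of a de novo assembly, which the files do not pair with gene names, so no role is given to any of them and the liver label could not be checked against marker genes.

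The libraries held 29986862 to 33433838 reads, recovered from the RPKM values, and no library stood out in depth. One control table, that of 8 h replicate 2, ended after 2527 genes, so 133 values were missing, 2 of them for the 62 genes. All 62 genes reached at least 1 RPKM in at least 3 libraries, as did 2656 of the listed genes, which entered the tests. For c80321_g1 this held only through the severe 12 h and 24 h libraries that chose it, since 2 of the other 24 libraries reached 1 RPKM, so its own tests are not used as support. Without it the counts of calls given below are 31 in place of 32 for severe 8 h against 0 h, 26 in place of 27 for severe against moderate at 8 h, 12 in place of 13 for the larger severe rise, and 37 in place of 38 over all contrasts.

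The choice by level passed through 463 genes with a control mean under 2 RPKM. Of these, 100 had a severe 12 h mean of at least 5 RPKM and 103 a severe 24 h mean of at least 5 RPKM. The 62 genes met both conditions, 38 met the one at 12 h alone, 41 the one at 24 h alone, and 322 met neither. Both late severe means were at least 5 RPKM in 1295 of all 2660 listed genes, so such a level was common in this list. The listed genes held a minor part of the reads of each library, for example 10.9% in control 4 h replicate 3 and 14.8% in severe 24 h replicate 2. Every share of listed genes given here therefore describes this list and not the whole liver transcriptome. The thresholds cut through a continuum. Just inside them, c87124_g2 had a control mean of 1.98 RPKM, c86700_g5 a severe 12 h mean of 5.05 RPKM and c84542_g7 one of 5.07 RPKM. Just outside, c90181_g9 missed with a severe 24 h mean of 4.98 RPKM, and c90639_g1 and c90203_g3 with control means of 2.02 RPKM.

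In control liver most of the 62 genes were low and measurable, not silent. Their control means ran from 0.00392 to 1.98 RPKM with a median of 1.42 RPKM, and the median gene had 118 reads per control library. Reads were present in all 15 control libraries for 55 genes, and 7 genes had at least 1 control library at 0. A mean of at least 50 reads per control library was found for 50 genes and a mean under 10 reads for 2, c80321_g1 and c78333_g1. Single control libraries could be high: 10 genes reached 5 RPKM or more in at least 1 of them. Most of these values fell at 4 h, with 5 genes in control 4 h replicate 3 and 3 genes in replicate 1. The highest such values were 6.61 RPKM for c80101_g1 in control 4 h replicate 3 and 6.09 RPKM for c87655_g2 in control 24 h replicate 2.

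Nearest to absence in control liver was c80321_g1. It had 2 reads in all 15 control libraries together, both in 1 library, and 4 reads in all 15 moderate hypoxia libraries together, again in 1 library. The limit set by 3 reads lay at 0.0842 to 0.0938 RPKM for this gene of 1066 bp, depending on the library; this limit and the read numbers cover counting error only. Severe libraries held 375, 240 and 20 of its reads at 8 h. They held 1448, 8 and 518 reads at 12 h, and the last time gave 1320, 1967 and 28 reads. The gene was thus strongly present in most late severe libraries and almost absent in some of them. The next lowest gene in control liver, c78333_g1, had 0 to 12 reads per control library, with 3 control libraries at 0.

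**Figure D1:**
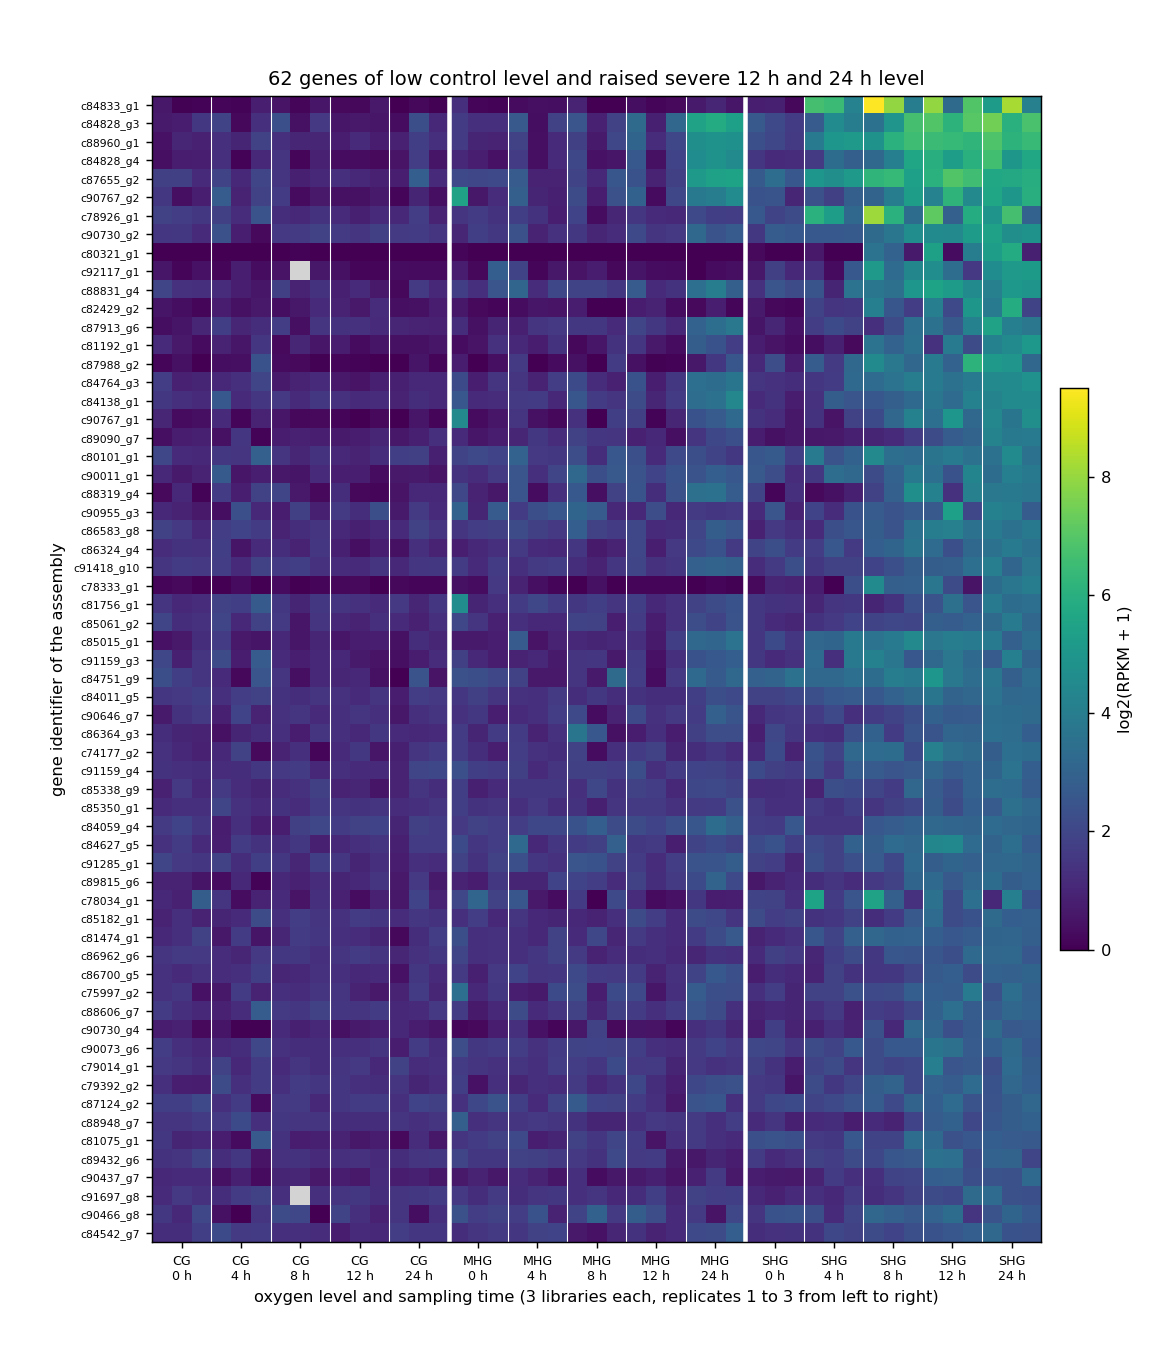
Levels of the 62 genes (rows, ordered by their mean in severe hypoxia at 24 h) in the 45 libraries (columns, grouped by oxygen level and time), as log2(RPKM + 1); grey cells are the 2 missing values. The control block is dark nearly throughout, colour appears in the severe block (SHG) from 4 h in a few rows and from 8 h in most, and in the moderate block (MHG) mainly at 24 h.

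The typical level was higher at each later time of the severe course. The median of the 62 group means was 1.67 RPKM at 0 h, 2.81 at 4 h, 6.37 at 8 h, 8.33 at 12 h and 9.48 RPKM at 24 h, the last 2 times having been used to choose the genes. A group mean of 5 RPKM or more was reached by 2, 16 and 40 genes at 0, 4 and 8 h. The severe mean was highest at 24 h for 39 genes, at 12 h for 16, at 8 h for 6 and at 4 h for c78034_g1 alone, and it was higher at each later time from 4 to 24 h in 34 genes. In control fish, in contrast, the median of the group means stayed between 1.13 and 1.60 RPKM over the 5 times, and no gene had a control group mean of 5 RPKM.

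Against the mean of all control libraries, the severe 12 h mean was 6.84-fold and the severe 24 h mean 7.0-fold higher for the median gene, which is a description of how the genes were chosen. At 24 h the lowest fold was 3.04, 25 genes were at 10-fold or more and 18 under 5-fold. All 3 severe libraries lay above all 15 control libraries for 59 of the 62 genes at 24 h, where this held for 29.5% of all listed genes, and for 52 genes at 12 h, against 22.1%. At the times that did not enter the choice of genes it held for 39 genes at 8 h (13.8% of the listed genes), 14 genes at 4 h (5.08%) and 2 genes at 0 h (2.93%); the control libraries used there had still been part of the choice.

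**Figure D2:**
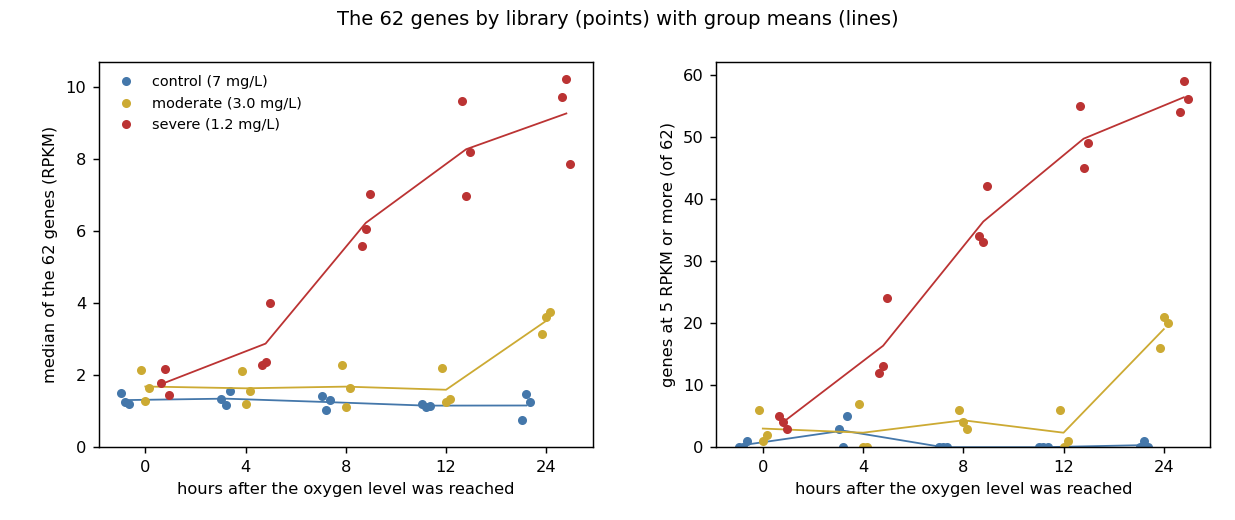
Each point is 1 library: the left panel gives the median level of the 62 genes in RPKM, the right panel the number of the 62 genes at 5 RPKM or more, against hours after the oxygen level was reached; lines join the means of 3 libraries. Severe libraries lie at 5.59 to 7.02 RPKM at 8 h and 7.85 to 10.2 RPKM at 24 h, moderate libraries at 3.15 to 3.75 RPKM at 24 h, and control libraries at 0.75 to 1.55 RPKM throughout.

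Within the severe group, the genes were tested against their own start at 0 h, which leaves out every library used to choose them. The comparison has no control arm of its own, so time in hypoxia and time without food cannot be told apart in it, and later severe libraries that chose the genes may have come from the same tanks. At 8 h, 32 of the 62 genes were higher than at 0 h and none was lower, by limma on log2(RPKM + 1) with Benjamini-Hochberg adjustment over all 2656 genes. That is 51.6% of the 62 genes, where 10.8% of all listed genes were called higher and 5.08% lower. The median log2 difference was 1.12 for the 62 genes and 0.02 for all listed genes, 61 differences were above 0, and all 3 libraries at 8 h lay above all 3 at 0 h for 46 genes, against 23.3% of the listed genes. In bulk liver, more cells of a type and more RNA per cell cannot be told apart. Without severe 8 h replicate 3 the count of called genes was 21. Among the 3 severe 8 h libraries, that one held the highest value of 39 of the 62 genes (62.9%), against 41.4% of the listed genes.

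Other genes of low control level gave a share between these. Of the 397 tested genes that also had a control mean under 2 RPKM but were not among the 62, 118 (29.7%) were called higher at 8 h than at 0 h in severe hypoxia. Among the 401 such genes before the filter, 79 had met 1 of the late severe conditions, so the share does not isolate a low control level. No test between the sets was made.

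At 4 h the same test called 3 of the 62 genes higher and none lower, where 0.414% of the listed genes were called higher and 0.0753% lower. An unadjusted p under 0.05 was found for 16 genes, 15 higher and 1 lower. It was not counted over the listed genes, so that number does not set the 62 genes apart. The 3 genes were c84833_g1, c88960_g1 and c87655_g2. This count rested on single libraries: it was 1 without severe 0 h replicate 3, without severe 4 h replicate 1 or without severe 4 h replicate 3, and 5 without severe 4 h replicate 2. The median log2 difference was 0.39 for the 62 genes and −0.02 for the listed genes, and all 3 libraries at 4 h lay above all 3 at 0 h for 17 genes, against 9.26% of the listed genes.

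An early and fairly even course was that of c88960_g1. It stood at 4.01, 3.02 and 2.03 RPKM in severe replicates 1, 2 and 3 at 0 h, at 14.3, 30.6 and 33.9 RPKM at 4 h and at 27.6, 65.6 and 91.8 RPKM at 8 h. All libraries at 4 and 8 h were above all those at 0 h. The log2 difference from 0 h was 2.71 (SE 0.48, limma adjusted p = 0.0169) at 4 h and 3.83 (SE 0.48, adjusted p = 9.78e-06) at 8 h; at 4 h the call was lost without severe 0 h replicate 3 (adjusted p = 0.0801) or severe 4 h replicate 3 (adjusted p = 0.0622). Later the gene stood at 73.4 to 87.8 RPKM at 12 h and 70.5 to 117 RPKM at 24 h, so its late libraries lay close together. Its 15 control libraries ran from 0.363 to 2.53 RPKM.

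The gene c87655_g2 had one of the 2 highest severe means at 0 h. It stood at 5.44, 9.61 and 4.96 RPKM in the severe libraries at 0 h, where its control libraries had a median of 1.23 RPKM and a highest value of 6.09 RPKM, so the groups overlapped; the test against moderate hypoxia at 0 h did not call it. At 4 h it stood at 31.2, 24.9 and 33.4 RPKM and at 8 h at 74, 81.7 and 40 RPKM. The libraries of the 3 times did not overlap. The log2 difference from 0 h was 2.05 (SE 0.44, limma adjusted p = 0.0393) at 4 h and 3.1 (SE 0.44, adjusted p = 4.67e-05) at 8 h. The call at 4 h was lost without any 1 of severe 0 h replicates 1, 2 and 3. It was also lost without severe 4 h replicate 1 or 3, and with a pseudocount of 0.1. After 66.5 to 121 RPKM at 12 h it stood at 50.5, 51.9 and 59.3 RPKM at 24 h, below all its 12 h libraries.

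The other gene with a severe mean of at least 5 RPKM at 0 h was c84751_g9. Its libraries held 6.52, 7.17 and 11 RPKM at 0 h, 8.19, 8.15 and 10.1 RPKM at 4 h, and 9.29, 14.8 and 13.3 RPKM at 8 h. The values at 0 and 4 h overlapped, and no test against 0 h called the gene. Against moderate hypoxia it was higher at 4 h (log2 difference 2.24, SE 0.48, limma adjusted p = 0.00708).

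The 30 genes that were not called at 8 h had lower values then, which the split by the call at 8 h favours. None of them was called lower than at 0 h. Their median group mean was 1.9 RPKM at 0 h and 4.43 RPKM at 8 h, and 15 of them had all 3 libraries at 8 h above all 3 at 0 h. This held for 23.3% of all listed genes, called or not. It was not counted over the listed genes without a call, so the number does not set these genes apart. The 32 called genes had medians of 1.52 RPKM at 0 h and 10.6 RPKM at 8 h. The genes called at 8 h also ended higher, with a median of 17.6 RPKM at 24 h against 7.82 RPKM, in libraries that had chosen both sets.

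The highest values of all 62 genes belonged to c84833_g1, a gene of 3872 bp. Its control libraries ran from 0 to 0.719 RPKM and its severe libraries at 0 h held 0.717, 0.786 and 0.147 RPKM. Replicates 1, 2 and 3 then held 104, 87.4 and 17.7 RPKM at 4 h and 723, 251 and 14.9 RPKM at 8 h. Every library from 4 h on was far above every control library, but libraries of the same time differed widely, by 5.88-fold at 4 h and 48.6-fold at 8 h between the highest and the lowest. At 12 h they held 246, 8.66 and 120 RPKM, while those at 24 h held 36.6, 307 and 16.7 RPKM. The log2 difference from 0 h was 5.19 at 4 h (SE 0.84, limma adjusted p = 0.00824) and 6.55 at 8 h (SE 0.84, adjusted p = 1.08e-05). Without severe 4 h replicate 1 the first had an adjusted p of 0.0522. The SE rests on the spread pooled over all 24 libraries in the fit, not on that of the severe libraries alone. With only the compared groups in the limma fit, the adjusted p was 0.0431 at 4 h and 0.00938 at 8 h.

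This gene alone made up 47.2% of the summed RPKM of the 62 genes in severe 8 h replicate 1 and 1.89% in replicate 3. The sums were 1530, 837 and 787 RPKM in the 3 libraries, and 808, 586 and 772 RPKM without c84833_g1. Summed levels of the 62 genes therefore say little about the typical gene, and medians are used here.

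Several genes were high and low in the same severe libraries as c84833_g1. For c78926_g1 the severe libraries held 65.3, 37.6 and 8.05 RPKM at 4 h, 274, 66.5 and 9.34 RPKM at 8 h, 141, 6.47 and 58.6 RPKM at 12 h and 29.2, 102 and 6.88 RPKM at 24 h. The order of the replicates was the same as for c84833_g1 at each of these times. For c80321_g1 they held 11.4, 6.83 and 0.591 RPKM at 8 h, 41.6, 0.237 and 14.7 RPKM at 12 h and 38.1, 56 and 0.788 RPKM at 24 h, again in that order. For c82429_g2 they held 2.87, 1.7 and 1.91 RPKM at 4 h and 16, 4.8 and 2.34 RPKM at 8 h. Later they held 15.6, 3.29 and 31.6 RPKM at 12 h and 13.8, 57.4 and 2.84 RPKM at 24 h. Here the order differed at 4 h, where replicate 2 was lowest, and at 12 h, where replicate 3 was highest. The libraries low in all 4 genes were replicate 3 at 8 h, replicate 2 at 12 h and replicate 3 at 24 h.

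These genes come from different assembly components. As a description over the 24 libraries outside the choice, the deviations of log2(RPKM + 1) from the group means correlated at r = 0.91 between c84833_g1 and c78926_g1, 0.9 between c84833_g1 and c80321_g1 and 0.79 between c84833_g1 and c82429_g2, and over the 6 severe libraries at 12 and 24 h at 0.98, 0.89 and 0.9. The points share the library, and so its depth and dissection. For c80321_g1, reads in the 24 libraries lay mostly in severe 8 h (375, 240 and 20 reads), with at most 20 in any other. Its r over the 24 libraries thus rests mainly on the 3 severe 8 h libraries. A pair of other genes, c78333_g1 and c92117_g1, correlated at 0.88 over the 24 libraries and differed from this set in its order: c92117_g1 held 34.1, 9.11 and 19.3 RPKM at 8 h, 24.2, 9.51 and 2.01 RPKM at 12 h and 23.8, 33.5 and 35.6 RPKM at 24 h. Among all 1891 pairs of the 62 genes, 14 (0.74%) reached r = 0.8, where 0.21% of all listed pairs did, and the median r was 0.16 against 0.04. The 14 included pairs within a component, c90767_g1 with c90767_g2 (0.98) and c84828_g3 with c84828_g4 (0.94). They also included c88960_g1 with both c84828_g3 (0.9) and c84828_g4 (0.84), so the pairs are not independent. Few pairs of the 62 genes thus reached r = 0.8 within groups, while their median r lay above that of the listed pairs.

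**Figure D3:**
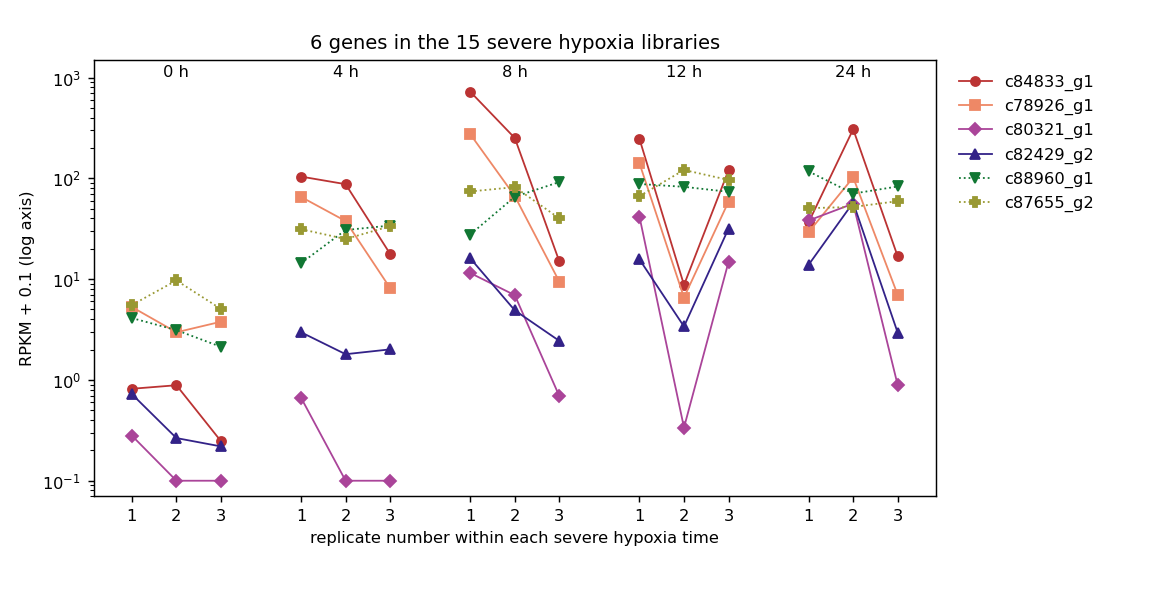
Levels of 6 genes in the 15 severe hypoxia libraries, as RPKM + 0.1 on a log axis; each point is a library, and lines join the 3 replicates of a time only to show their order. The solid lines (c84833_g1, c78926_g1, c80321_g1, c82429_g2) fall together in replicate 3 at 8 h, replicate 2 at 12 h and replicate 3 at 24 h, while the dotted lines (c88960_g1, c87655_g2) show no drop of that size there.

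Spread at 24 h differed widely between the genes. The highest severe 24 h library was 1.71 times the lowest for the median gene, and at least 3 times for 8 genes. The ratio was 71.0 for c80321_g1, 20.2 for c82429_g2, 18.4 for c84833_g1, 14.8 for c78926_g1 and 14.6 for c78034_g1. At the other end, c88319_g4 held 13, 13.3 and 12.3 RPKM and c86700_g5 6.89, 6.55 and 7.28 RPKM at 24 h. An even 24 h value did not mean an even course: c88319_g4 held 16.9, 1.53 and 16.6 RPKM at 12 h.

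The gene with its highest severe mean at 4 h, c78034_g1, owed this to single libraries. It held 44.3, 2.23 and 4.66 RPKM at 4 h and 43.2, 6.4 and 1.54 RPKM at 8 h. Its 3 severe libraries at 0 h, at 2.89, 2.6 and 1.52 RPKM, overlapped both groups. No test called it.

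In moderate hypoxia no difference from 0 h passed the test before 24 h. At 4, 8 and 12 h, limma called none of the 62 genes higher or lower than at moderate 0 h, where 0.0377%, 0% and 0.0377% of the listed genes were called higher and 0.0377%, 0% and 0% lower. The unadjusted p was under 0.05 for 1, 5 and 1 of the 62 genes, of which 0, 3 and 0 were higher. This was not counted over the listed genes, so these numbers do not set the 62 genes apart. The libraries did not overlap upwards for 0, 5 and 2 genes, against 3.88%, 6.36% and 5.05% of the listed genes. Some means were higher than at 0 h without passing the test: c90011_g1 had a mean of 1.64 RPKM at 0 h and 5.81 at 8 h, and c86364_g3 of 1.81 and 5.75 RPKM. The moderate 8 h libraries of c86364_g3 held 11.9, 5.02 and 0.332 RPKM, the last below all its moderate 0 h libraries. The median of the group means was 1.84 RPKM at 0 h, 1.72 at 4 h, 1.92 at 8 h and 1.7 RPKM at 12 h. All 3 moderate libraries lay above all 15 control libraries for 1, 0, 1 and 0 genes at 0, 4, 8 and 12 h, where this held for 0.489%, 0.376%, 1.58% and 0.526% of the listed genes.

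At 24 h of moderate hypoxia, 20 of the 62 genes were higher than at moderate 0 h and 1 was lower by limma, with 8.21% of the listed genes called higher and 9.75% lower. The median log2 difference was 0.77 for the 62 genes and −0.11 for the listed genes, and 48 of the 62 differences were above 0. All 3 libraries at 24 h lay above all 3 at 0 h for 31 genes, against 19.7% of the listed genes. The median of the group means was 3.4 RPKM, and 18 genes had a mean of at least 5 RPKM. All 3 libraries lay above all 15 control libraries, which had been part of the choice, for 25 genes, against 11.4% of the listed genes. With quantile normalization, which moved the split of the listed genes from 218 higher and 259 lower to 269 higher and 221 lower, 27 of the 62 genes were higher and none lower.

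The largest of these differences were those of 2 genes of a single assembly component. For c84828_g3 the moderate libraries held 2.21, 1.41 and 1.43 RPKM at 0 h, 8.85, 0.776 and 7.84 RPKM at 12 h and 43.3, 55.8 and 40.6 RPKM at 24 h. For c84828_g4 they held 1.14, 0.728 and 0.385 RPKM at 0 h, 5.08, 0.343 and 2.8 RPKM at 12 h and 23.9, 28 and 22.5 RPKM at 24 h. In both genes replicates 1 and 3 at 12 h lay above all libraries at 0 h and replicate 2 did not. The log2 difference between 24 h and 0 h was 4.15 (SE 0.7, limma adjusted p = 0.000822) for c84828_g3 and 3.9 (SE 0.57, adjusted p = 0.000287) for c84828_g4.

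Next to these stood c88960_g1 and c87655_g2, the genes of the even severe course. The moderate libraries of c88960_g1 held 2.13, 0.993 and 0.886 RPKM at 0 h and 25.9, 28.7 and 26.6 RPKM at 24 h (log2 difference 3.62, SE 0.48, limma adjusted p = 0.000138). Those of c87655_g2 held 3.31, 3.02 and 3.25 RPKM at 0 h and 34.4, 41.8 and 44.7 RPKM at 24 h (log2 difference 3.29, SE 0.44, adjusted p = 0.000138). In both genes the moderate 24 h libraries lay close together and above all moderate 0 h libraries.

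The only gene called lower was c89432_g6, though others were lower without a call. The moderate libraries of c89432_g6 held 2.94, 1.94 and 1.88 RPKM at 0 h and 0.542, 0.963 and 0.715 RPKM at 24 h, while its severe libraries held 6.93, 7.13 and 2.98 RPKM at 24 h. The log2 difference at moderate 24 h was −0.89 (SE 0.27, limma adjusted p = 0.0288). This call was lost with quantile normalization (log2 difference −0.73, adjusted p = 0.0552) and in 5 of 6 fits that left out a library.

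**Figure D4:**
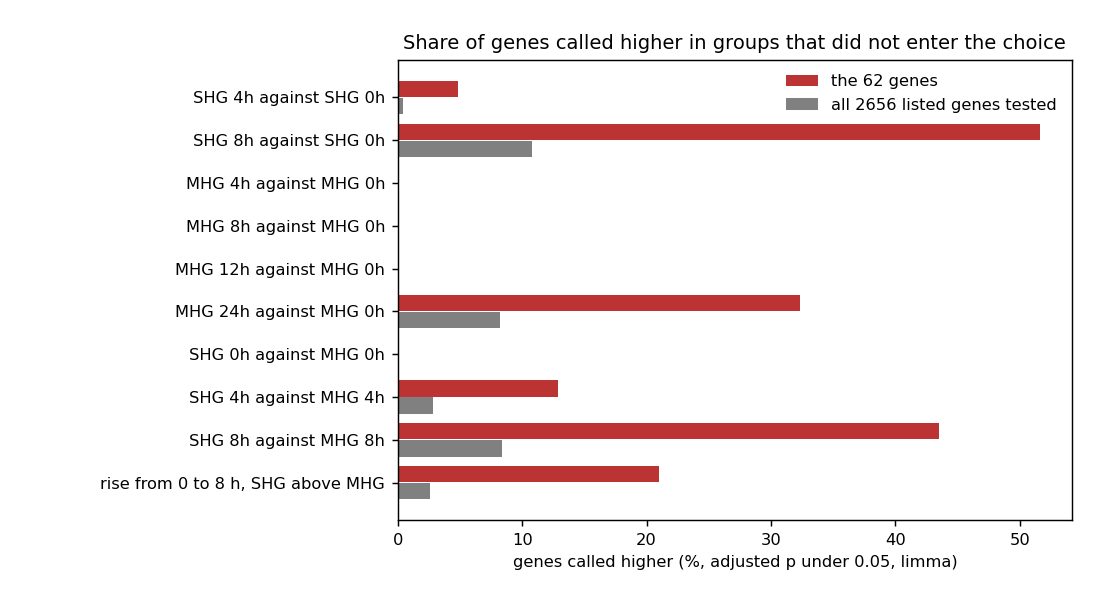
Percentage of the 62 genes (red) and of all 2656 listed genes tested (grey) called higher by limma at an adjusted p under 0.05, for the 10 contrasts among the 24 libraries that did not enter the choice of genes. Bars of visible length for the 62 genes occur at severe 4 and 8 h and moderate 24 h, and exceed the grey bars there (51.6% against 10.8% for severe 8 h against its 0 h).

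The genes called at severe 8 h and at moderate 24 h overlapped in part. The 2 comparisons set no library in common against another, but both came from 1 fit. Each gene had 1 spread in it, estimated over all 24 libraries, so the 2 lists are not independent. Of the 32 genes called higher at severe 8 h, 15 (46.9%) were called higher at moderate 24 h, and these were 75% of the 20 called there. Among all listed genes the 2 lists of 287 and 218 genes shared 61, which is 21.3% and 28.0% of each. The 62 genes were called more often in each comparison (51.6% and 32.3%, against 10.8% and 8.21% of the listed genes). Higher call rates raise such an overlap by themselves, so the 2 pairs of shares are not directly comparable. The 15 shared genes, with c84828_g3, c84828_g4, c88960_g1 and c87655_g2 among them, had a median group mean of 9.06 RPKM at moderate 24 h and 23.2 RPKM at severe 24 h. The 17 genes called at severe 8 h and not at moderate 24 h had medians of 2.43 and 12.6 RPKM. The 5 genes called at moderate 24 h and not at severe 8 h were c84059_g4, c86700_g5, c89090_g7, c90646_g7 and c91418_g10, and they had medians of 4.39 and 9.2 RPKM. The sets were split by the call at moderate 24 h, which favours a difference in their moderate 24 h medians. The severe 24 h libraries had chosen the genes. In all, 38 of the 62 genes were called higher in at least 1 of the 10 tested contrasts and 24 in none, where 19.2% of all listed genes were called higher in at least 1.

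Set side by side at 24 h, the moderate mean was 35.8% of the severe mean for the median gene. The severe 24 h libraries had chosen the genes, so a lower moderate value was favoured by the choice and no test is given. The moderate mean was at least 50% of the severe mean in 16 genes and under 20% in 16 genes. It was highest for c85015_g1, at 88.1%: its moderate libraries held 8.28, 7.58 and 11.3 RPKM and its severe libraries 14.6, 6.51 and 9.69 RPKM, which overlapped. It came next for c84059_g4, at 84.9%, with 4.87, 9.17 and 6.39 RPKM in moderate and 8.96, 7.85 and 7.26 RPKM in severe hypoxia, which overlapped too.

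At the other end of this range were genes with low moderate 24 h values. At moderate 24 h c80321_g1 had no read in any of 3 libraries. There c78333_g1 held 0, 0.0807 and 0.0479 RPKM and c92117_g1 0, 0.202 and 0.311 RPKM, where their severe 24 h libraries held 9.18, 12.1 and 14.7 RPKM and 23.8, 33.5 and 35.6 RPKM. For c84833_g1 the moderate 24 h libraries held 0.625, 1.05 and 0.504 RPKM, 1 of them above its highest control library, and for c82429_g2 0.179, 0.741 and 0.137 RPKM. Single earlier moderate libraries were higher: c92117_g1 held 6.13 RPKM and c78333_g1 2 RPKM in moderate 0 h replicate 3, above all their control libraries. All 4 genes of the set that varied together in severe hypoxia had a moderate 24 h mean of at most 5.79% of the severe one, the value of c78926_g1.

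**Figure D5:**
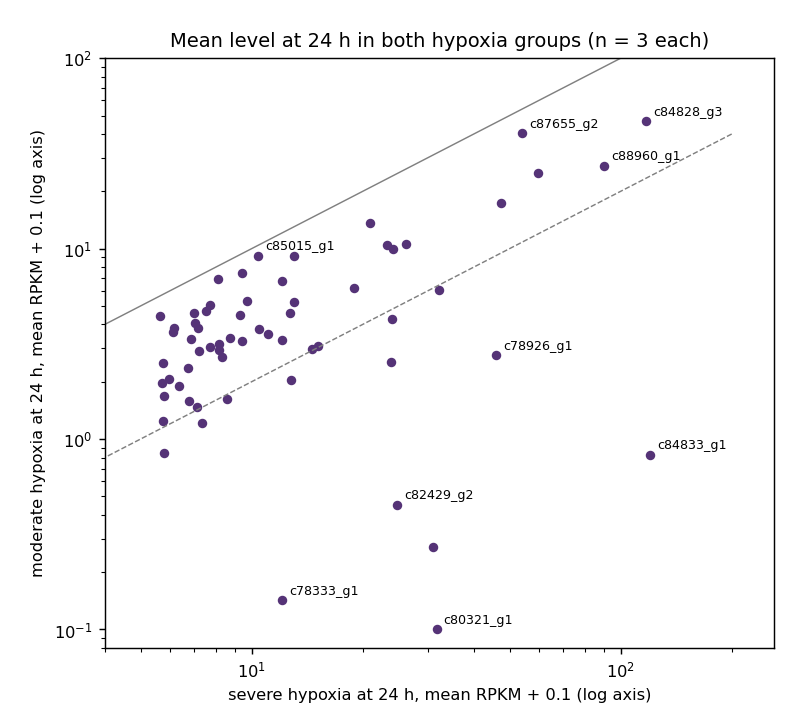
Mean level of each of the 62 genes at 24 h in moderate hypoxia against severe hypoxia, both as RPKM + 0.1 on log axes, 3 libraries per mean; the solid line marks equal levels and the dashed line 20% of the severe level. Every point lies under the solid line, and a separate group of 5 points with moderate means under 1 RPKM and severe means over 10 RPKM lies far under the dashed line.

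Severe and moderate hypoxia were also compared at the times that did not enter the choice. When the levels had just been reached, at 0 h, limma called none of the 62 genes, where 0.0377% of the listed genes were called higher and 0% lower in severe hypoxia. Of the 62 genes, 4 had an unadjusted p under 0.05, 3 higher and 1 lower. This number was not counted over the listed genes and does not set the 62 genes apart. The libraries of 10 genes did not overlap upwards, against 6.17% of the listed genes. At 4 h, 8 of the 62 genes were higher in severe hypoxia and none was lower, with 2.86% of the listed genes called higher and 0.527% lower. The libraries did not overlap upwards for 18 genes, against 9.56% of the listed genes. The count of calls was 3 when only the compared groups entered the fit, 5 when moderate 4 h replicate 2 was left out and 4 when replicate 3 was. At 8 h, 27 genes were higher and none was lower, with 8.40% of the listed genes called higher and 4.03% lower, and 32 genes did not overlap upwards, against 14.1%. Among the other tested genes with a control mean under 2 RPKM, 23.7% were called higher. There was a median log2 difference of 1.07 against −0.04. These 8 h comparisons and those against severe 0 h share the severe 8 h libraries.

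The rise from 0 to 8 h was itself larger in severe than in moderate hypoxia for 13 of the 62 genes, by the interaction term of the limma fit, where 2.60% of the listed genes were called; it was smaller for none, against 0.602% of the listed genes. Of the other tested genes with a control mean under 2 RPKM, 8.82% were called. The median difference of log2 rises was 1.16 for the 62 genes and 0.03 for the listed genes. Without severe 0 h replicate 1 the count was 8. The largest was that of c84833_g1, whose moderate libraries at 8 h held 0.951, 0 and 0 RPKM: 6.73 (SE 1.18, adjusted p = 0.00146). For c78926_g1 the moderate libraries at 8 h held 2.79, 0.254 and 1.05 RPKM, and the difference was 4.0 (SE 1.07, adjusted p = 0.0415), a call that was lost in 10 of 12 fits that left out a library.

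The moderate libraries with replicate number 1 had the highest median level of the 62 genes at 0, 4, 8 and 12 h, at 2.14, 2.12, 2.27 and 2.19 RPKM, where the other 2 libraries of each time lay between 1.12 and 1.65 RPKM. Replicate 1 held the highest value of 58.1%, 56.5%, 53.2% and 72.6% of the 62 genes at these times, and of 35.3%, 33.3%, 43.0% and 40.8% of the listed genes. What this owes to the fish, the tank or the library was not tested. In moderate 0 h replicate 1, 3 genes stood apart: c90767_g1 held 21.3 RPKM there against 0.217 and 0.489 RPKM in replicates 2 and 3, c90767_g2 43.6 against 0.539 and 1.33 RPKM, and c81756_g1 24 against 0.982 and 1.41 RPKM. None of the 3 was called in any contrast. The spread used for each gene was estimated over all 24 libraries, with moderate 0 h replicate 1 among them. A missing call therefore does not show an unchanged level. For c90767_g1 and c90767_g2 all severe 8 h libraries lay above all severe 0 h libraries, and for c81756_g1 they overlapped. Without moderate 0 h replicate 1, 22 of the 62 genes were higher at moderate 24 h than at 0 h, and 10 had a larger rise in severe than in moderate hypoxia.

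The 62 genes came from 58 components of the assembly, a component being a group of assembled transcripts that share sequence. Members of 1 component may be parts or copies of 1 gene among which reads can be split, so their values are not independent. In 4 components 2 of the 62 genes occurred. Over the 9 severe libraries from 8 to 24 h, c84828_g3 was 1.36 to 2.14 times c84828_g4, and c90767_g1 was 0.375 to 0.575 times c90767_g2, so the level of these pairs moved nearly in proportion. The ratio ranged more widely for c90730_g2 to c90730_g4, from 2.1 to 10.9, and for c91159_g3 to c91159_g4, from 0.777 to 3.08.

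These components also held 28 listed genes outside the 62, of which 20 had a control mean of at least 2 RPKM. The severe 24 h mean was at least 2 times the control mean in 18 of the 28. In 5 of the 28 the control mean was instead more than 2 times the severe 24 h mean. The same shares over all listed genes were not counted, so these numbers do not set the components apart. For the median listed gene the severe 24 h mean was 1.16 times the control mean. Length did not set the 62 genes apart from the listed genes at large: their median length was 2618 bp, ranging from 645 to 9992 bp, against 2584 bp for all listed genes and 1728 bp for the other genes with a control mean under 2 RPKM.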

How the data were processed

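The authors deposited 1 table per library whose values were read here as RPKM, that is, reads of an assembled gene divided by its length and by the reads of the library. The headers name no unit; all 117443 values above 0 became whole reads (tolerance 0.01) under 1 set of gene lengths and library totals. Per the labels' protocols, TruSeq libraries gave 125-bp paired-end reads, from which Trinity built the assembly. The aligner is not given in the sources used. None of the identifiers matched the reference gene table, so lists of hypoxia targets and of cell type markers could not be applied and no sequence is shown.

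Genes reaching 1 RPKM in 3 or more libraries were tested with limma 3.58.1 in R 4.3.3 on log2(RPKM + 1), which understates changes of low genes, with an intensity trend and 1 mean per group over the 24 libraries outside the choice. A gene is called at a Benjamini-Hochberg adjusted p under 0.05 over all 2656 genes. The adjustment and the quantile normalization thus cover listed genes only, which hold a minor part of the reads. The script was run on simulated data in which all genes had the same spread. This checks the code and not how the test behaves at the spreads seen here.

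The members, lists and tests were chosen with earlier results of these data known. Named genes are, per contrast, the 2 largest called rises and falls; those with the highest severe 24 h, severe 0 h or single control values, the most extreme moderate-to-severe ratios and 24 h spreads, those nearest the thresholds, and those sharing a component. The genes named for varying together, c78034_g1, c92117_g1, c81756_g1, c90011_g1, c86364_g3 and the 5 genes called only at moderate 24 h were named after their values were seen. Over all listed genes, same-numbered libraries of compared groups correlated at −0.16 to 0.18 in their deviations and in no comparison all 3 exceeded 0.1, so no replicate block was used; among the 62 genes, moderate replicate 1 was often highest before 24 h. The alternatives tried were another pseudocount, no filter, quantile normalization, other sets of libraries in the fit, a block and leaving out each library.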

Additional observations from a re-analysis of the deposited data

Results flagged for a closer look

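For the named genes below other than c80321_g1, the rise from 0 to 8 h differed between severe and moderate hypoxia by a test of the difference itself. That test was the interaction term of the limma fit with adjustment over all listed genes. On the log2(RPKM + 1) scale the severe rise exceeded the moderate one by 6.73 for c84833_g1 (adjusted p = 0.00146), by 4.0 for c78926_g1 (adjusted p = 0.0415), by 3.51 for c88960_g1 (adjusted p = 0.00381) and by 3.36 for c78333_g1 (adjusted p = 0.00411). It exceeded it by 3.3 for c87655_g2 (adjusted p = 0.0028) and by 2.51 for c82429_g2 (adjusted p = 0.0117) and the fitted value was 2.4 for c80321_g1. The call of c78926_g1 was lost in 10 of 12 fits that left out a library, and that of c84833_g1 was kept in all 12. For the other genes named here the calls in such fits were not examined. For c80321_g1, which passed the filter on low values only through libraries that chose it, no p is given; all moderate 8 h libraries were at 0, so the fitted value depends on the pseudocount of 1 and is no bound.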

How the results depend on the processing

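The number of genes chosen was 16 with a control mean under 1 RPKM, 23 with both severe means at 10 RPKM or more, 74 with medians in place of means, and 59 to 72 when 1 of 21 libraries was left out. For severe 4 h against 0 h, 1 gene was called with a pseudocount of 0.1 and 1 to 5 with 1 library left out. Leaving out 1 library gave 21 to 29 genes for severe 8 h against 0 h, 14 to 22 for moderate 24 h against 0 h, 4 to 11 for severe against moderate at 4 h, 22 to 29 at 8 h, 8 to 12 for the larger severe rise, and 0 for the comparisons without a call. With only the compared groups in the fit, severe against moderate at 4 h gave 3. The cause of these differences was not tested. With a replicate block, whose pairing the data did not bear out, the counts were 3 and 33 for severe 4 and 8 h, 19 for moderate 24 h, 8 and 28 for severe against moderate at 4 and 8 h, 13 for the larger severe rise and 0 for the others. Quantile normalization shifted the median of the listed genes by 0.11 (log2) at moderate 12 h; for severe 8 h against 0 h it turned 287 higher and 135 lower listed genes into 253 and 208, with 31 of the 62 genes higher, and for severe against moderate at 8 h 223 and 107 into 216 and 179. Of 168 alternatives to 13 results on named genes, 146 kept the call, 22 lost it and none reversed. For c88960_g1 at severe 4 h the call was lost with a pseudocount of 0.1 (adjusted p = 0.0598), and for the larger severe rise of c78926_g1 with quantile normalization (0.0635) and with only the compared groups in the fit (0.111). With 3 libraries per group and spreads over 10-fold in some genes, small differences were not detectable.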
